A study of Mus musculus with 6 samples.

Results

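This account covers the mouse microRNAs (miRNAs) miR-320, miR-484, miR-1839, miR-877 and miR-1224, which are made without the usual cut by the enzyme Drosha, in fat cells grown with or without interleukin-6 (IL-6). Every arm of these 5 hairpins on the array was taken by its number, which gave 9 of the 1247 mouse miRNAs measured. The numbers were chosen with earlier results of these data known. Of the 9, 6 could be tested (mmu-miR-320-3p, mmu-miR-484, mmu-miR-1839-5p, mmu-miR-1839-3p, mmu-miR-877-5p and mmu-miR-1224-5p, written without the mouse prefix from here on). The other 3 were too dim for a test under the detection rule used here (miR-320-5p, miR-877-3p and miR-1224-3p).

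The cells were 3T3-L1, a clonal mouse embryonic fibroblast line that turns into fat cells in culture, and RNA was taken on day 8 of differentiation. The IL-6 group (2 arrays) had received recombinant IL-6 at 1 ng/ml from the start of differentiation, with fresh medium every 24 h, and the control group (4 arrays) had received none. Both groups were differentiated in medium with 10% fetal bovine serum, first for 3 days with isobutylmethylxanthine (0.5 mmol/l), dexamethasone (1 µmol/l), rosiglitazone (2 µmol/l) and insulin (2 µmol/l), then for 3 days with insulin alone, then for 2 days with none of these. The comparison asks how miRNA levels differ after differentiation in the presence of IL-6, a cytokine that signals through gp130 and STAT3. The labels do not say that the samples came from separate cultures, so the spread behind each p-value may be technical only. An miRNA array holds no mRNA markers of fat cells. Among canonical miRNAs described in adipocytes, miR-143-3p and miR-103-3p were detected on all 6 arrays. Both also stand on the list, used below, of miRNAs common in fibroblast-like cells. Their detection therefore does not show that the cells had become fat cells. MiR-143-3p was itself lower with IL-6, by a log2 difference of -0.39 that did not pass the test (limma adjusted p = 0.0845).

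All 6 arrays lay on 1 slide, and between 268 and 313 miRNAs were detected per array. All control arrays lay in slide row 1 and both IL-6 arrays in slide row 2, so slide row and treatment cannot be told apart. Slide column 3 held IL-6 1 and control 3, and column 4 held IL-6 2 and control 4, so differences are also given within these columns.

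Most miRNAs are cut from a long transcript in the nucleus by Drosha with its partner DGCR8, carried to the cytoplasm by exportin-5 and cut again by Dicer. The 5 hairpins described here reach Dicer by other routes. The hairpins of miR-320 and miR-484 are made directly by RNA polymerase II as short capped transcripts that start at the hairpin's own first base and leave the nucleus through exportin-1. MiR-1839 comes from a small Cajal body RNA related to the H/ACA snoRNAs, which guide chemical changes of other RNAs. MiR-877 and miR-1224 are mirtrons, whole short introns that the spliceosome releases and that fold into a hairpin after debranching. Their levels can therefore be set beside those of canonical miRNAs from the same RNA.

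The genes lie apart in the genome (RefSeq, GRCm38.p6). Mir320 is at chr14:70443510-70443591, 38 bases from Polr3d, a subunit gene of RNA polymerase III, and outside the bounds of any other gene in the table. Mir484 is at chr16:14159626-14159692, 347 bases from Marf1, a gene of oocyte meiosis, and likewise outside other genes. Mir1839 is at chr7:81529916-81529988, within the bounds of the long noncoding RNA gene 2900076A07Rik. Mir877 is at chr17:35960730-35960814 on the minus strand within Abcf1, which encodes a translation factor of the ABC family. Mir1224 is at chr16:20604452-20604536 on the plus strand within Vwa5b2.

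The mature sequences show which bases select targets and which the array reads. RefSeq (GRCm38.p6) gave 6 of the 9, shown 5′ to 3′ with the seed, bases 2 to 8, in capitals.
miR-484: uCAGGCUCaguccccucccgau
miR-1839-5p: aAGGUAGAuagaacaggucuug
miR-877-5p: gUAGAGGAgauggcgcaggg
miR-877-3p: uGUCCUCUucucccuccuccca
miR-1224-5p: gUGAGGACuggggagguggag
miR-1224-3p: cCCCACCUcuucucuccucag
The other 3 are miR-320-3p, miR-320-5p and miR-1839-3p. The 6 seeds all differ, and no other mature sequence in the RefSeq table shares any of them, so none of the 6 belongs to a seed family in that table.

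The hairpins of the mirtrons are shown because their ends are those of an intron. The capitals mark the GU at the 5′ end and the AG at the 3′ end, the bases of the splice sites.
Mir877: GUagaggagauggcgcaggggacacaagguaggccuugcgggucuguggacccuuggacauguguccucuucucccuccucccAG
Mir1224: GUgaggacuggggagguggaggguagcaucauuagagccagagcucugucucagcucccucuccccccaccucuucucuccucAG
Of the 1005 mouse hairpins in the table, 30 (2.99%) start with GU and end with AG. The 5p arm of each mirtron begins at the first base of its hairpin, and the 3p arm of miR-1224 ends at the last base.

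The hairpins of Mir484 and Mir1839 are shown with the stretch that the array's longest probes bind in capitals.
Mir484: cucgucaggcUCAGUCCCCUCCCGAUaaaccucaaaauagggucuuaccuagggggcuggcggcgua
Mir1839: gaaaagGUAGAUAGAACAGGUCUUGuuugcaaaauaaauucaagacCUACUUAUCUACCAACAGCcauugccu
The probes bind the 3′ side of each mature miRNA and were cut to different lengths by the array's maker: bases 7 to 22 of miR-484, bases 4 to 22 of miR-1839-5p, bases 8 to 20 of miR-877-5p and bases 11 to 21 of miR-1224-5p for the longest probe. The probes of miR-320-3p and miR-1224-5p, as the files give them, show how short some are, with the base that the longer one adds in capitals.
miR-320-3p, shorter: tcgccctctcaa
miR-320-3p, longer: tcgccctctcaaC
miR-1224-5p, shorter: ctccacctcc
miR-1224-5p, longer: ctccacctccC
No full complement of a probe of the 9 miRNAs was found in another RefSeq mature sequence. Partial matches and RNAs other than mature miRNAs were not searched. The search therefore cannot show that a probe, least of all a short one, reads only its own miRNA. Because probes differ in length and base content, the members' intensities are compared between arrays and not with each other.

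None of the 6 tested miRNAs passed the test of IL-6 against control. In that test (limma, adjusted p under 0.05 over 299 miRNAs), 1 of all 299 passed (0.334%), higher with IL-6. At an unadjusted p under 0.05 after percentile scaling, 0 of the 6 passed, against 68 of 299 (22.7%). At that p, 32 of all 299 were higher (10.7%) and 36 lower (12.0%) with IL-6. The groups did not overlap for 2 of the 6, miR-320-3p and miR-1839-3p, both lower with IL-6 after percentile scaling, while 65 of all 299 (21.7%) separated in that direction, 39 (13.0%) in the other and 104 (34.8%) in either. In a bulk sample, fewer cells of a type and less RNA per cell cannot be told apart.

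**Figure D1:**
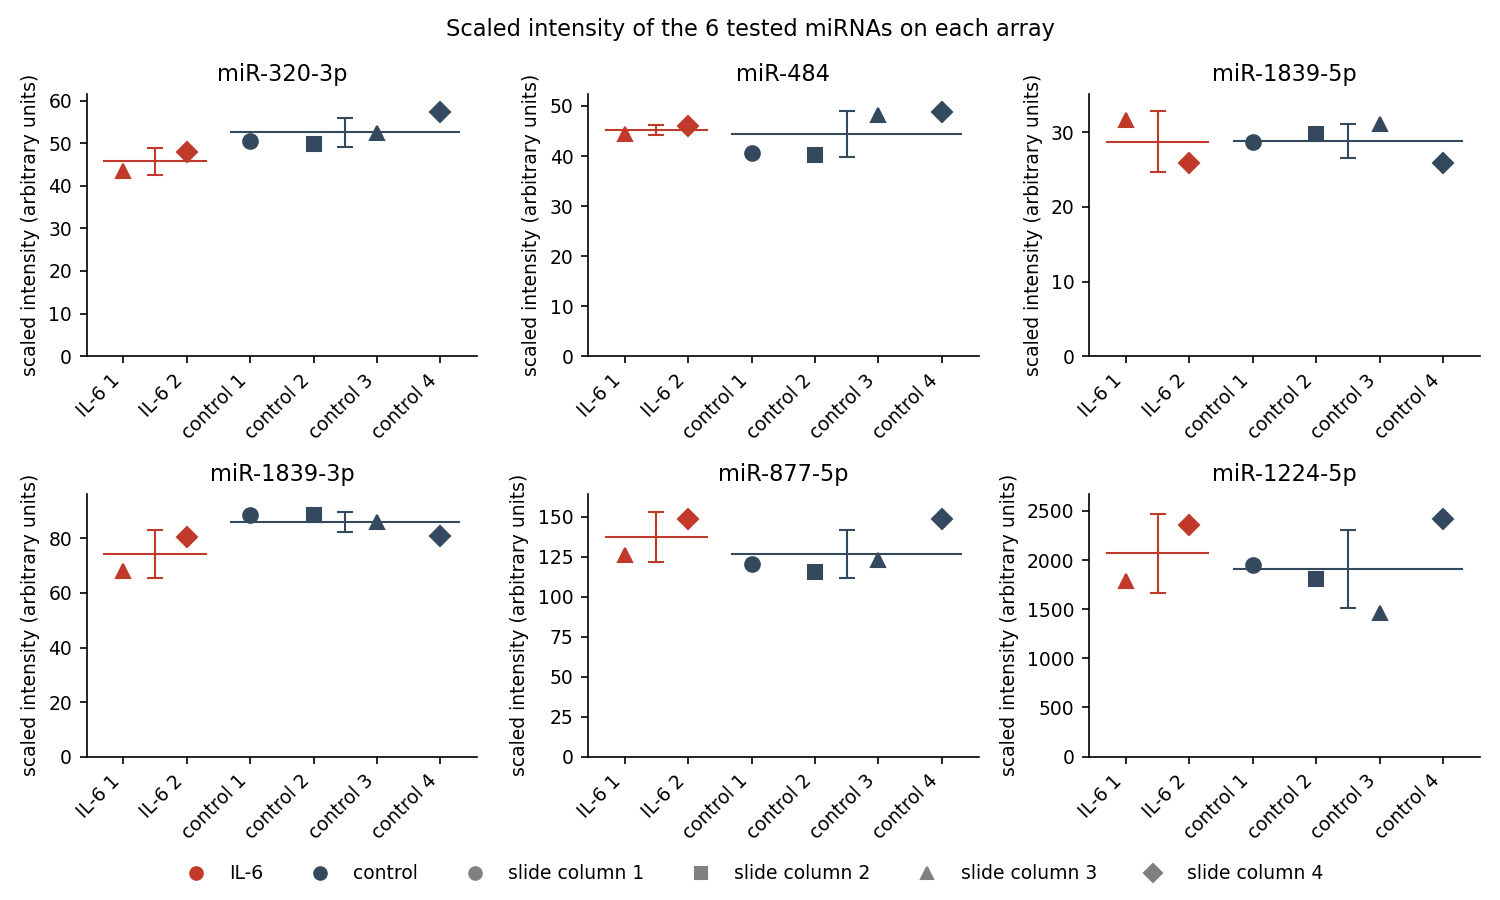
Scaled intensity (arbitrary units, linear axis from 0) of each tested miRNA on the 2 IL-6 arrays (red, left) and the 4 control arrays (dark blue, right). Each point is 1 array, its shape gives the slide column, and lines with bars are the group mean ± SD. After percentile scaling, the IL-6 points of miR-320-3p (43.5 and 48.0) sit below all its control points, and the column 4 arrays are the highest for miR-877-5p and miR-1224-5p.

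Of the capped hairpins, miR-320-3p has been studied in adipocytes for its part in insulin signalling. The scaled intensity of miR-320-3p (mmu-miR-320-3p) was 43.5 and 48.0 on the IL-6 arrays, against 50.5, 49.7, 52.5 and 57.4 on the control arrays. Both IL-6 arrays lay below every control array, and control 4 was the highest. On the log2 scale it averaged 5.51 ± 0.10 with IL-6 (SD, n = 2) and 5.71 ± 0.09 in controls (SD, n = 4). The difference, IL-6 minus control, was -0.20 ± 0.09 (SE), a fold of 0.871 with a 95% interval of 0.747 to 1.02, and it did not pass the test (limma adjusted p = 0.247). Within slide columns 3 and 4 it was -0.27 and -0.26, and it was -0.13 without IL-6 1. Both probes of miR-320-3p were lower on the IL-6 arrays after this scaling, by the same order of arrays. The shorter probe gave 35.3 and 39.3 with IL-6, against 41.8, 41.3, 44.6 and 48.1 in controls, and the longer gave 51.6 and 56.7 with IL-6, against 59.3, 58.2, 60.3 and 66.7 in controls.

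MiR-484, the other capped hairpin, is known in heart muscle for limiting mitochondrial fission through Fis1. The scaled intensity of mmu-miR-484 was 44.5 and 45.9 on the IL-6 arrays, against 40.5, 40.2, 48.1 and 48.7 on the control arrays. The IL-6 arrays fell between the lower pair of controls, 1 and 2, and the higher pair, 3 and 4. The log2 difference was 0.03 ± 0.11 (SE), a fold of 1.02 with a 95% interval of 0.845 to 1.24 (limma adjusted p = 0.914). It was -0.11 within column 3 and -0.09 within column 4, and its sign turned without control 1 (-0.01) or control 2 (-0.01).

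Since miR-320-3p and miR-484 share the capped route, their ratio was taken within each array, which needs no scaling between arrays. The log2 ratio of miR-320-3p over miR-484 was -0.03 and 0.06 on the IL-6 arrays, against 0.32, 0.31, 0.12 and 0.24 on the control arrays. Both IL-6 ratios lay below all 4 control ratios. The ratio averaged 0.02 ± 0.07 with IL-6 (SD, n = 2) and 0.25 ± 0.09 in controls (SD, n = 4), a difference of -0.23. The exact two-sided permutation test gave p = 0.0667, the smallest that its 15 splits allow, and 0.133 after Benjamini-Hochberg adjustment over the 2 ratios tested, so this design could not have passed 0.05. The difference was -0.16 within column 3 and -0.17 within column 4.

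Both arms of the snoRNA-related hairpin were detected on all 6 arrays. The 5p arm, mmu-miR-1839-5p, had scaled intensities of 31.6 and 25.8 on the IL-6 arrays, against 28.7, 29.8, 31.2 and 25.8 on the control arrays. IL-6 1 and control 3 were the highest and IL-6 2 and control 4 the lowest, so the groups overlapped. The log2 difference was -0.01 ± 0.12 (SE), a fold of 0.992 with a 95% interval of 0.812 to 1.21 (limma adjusted p = 0.978). It was 0.02 within column 3 and 0.00 within column 4, and without 1 array it ran from -0.16 (IL-6 1 left out) to 0.13 (IL-6 2 left out). Its 3 probes did not move one way: the probe of 18 bases gave 0.07, and those of 17 and 19 bases gave -0.03 and -0.06.

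The 3p arm, mmu-miR-1839-3p, had scaled intensities of 67.9 and 80.6 on the IL-6 arrays, against 88.6, 88.5, 85.9 and 80.9 on the control arrays. After this scaling IL-6 1 lay well below every control array, and IL-6 2 lay just under control 4. Its 4 control values were close together, with an SD of 0.06 on the log2 scale, rank 44 from the lowest among the 299 tested. The log2 difference was -0.22 ± 0.09 (SE), a fold of 0.861 with a 95% interval of 0.736 to 1.01, and did not pass the test (limma adjusted p = 0.236). It was -0.34 within column 3 but -0.01 within column 4, and -0.09 without IL-6 1 but -0.34 without IL-6 2. On the probe of 19 bases IL-6 2 (113) was above control 4 (107), so the groups did not separate on that probe.

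Within arrays, the log2 ratio of miR-1839-5p over miR-1839-3p was -1.10 and -1.64 on the IL-6 arrays, against -1.63, -1.57, -1.46 and -1.65 on the control arrays. IL-6 1 stood above all others, while IL-6 2 lay among the controls. The difference in ratio was 0.20 (exact two-sided permutation test, p = 0.267, and 0.267 after adjustment over the 2 ratios). It was 0.36 within column 3, 0.01 within column 4 and -0.06 without IL-6 1, so it rested on that 1 array.

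**Figure D2:**
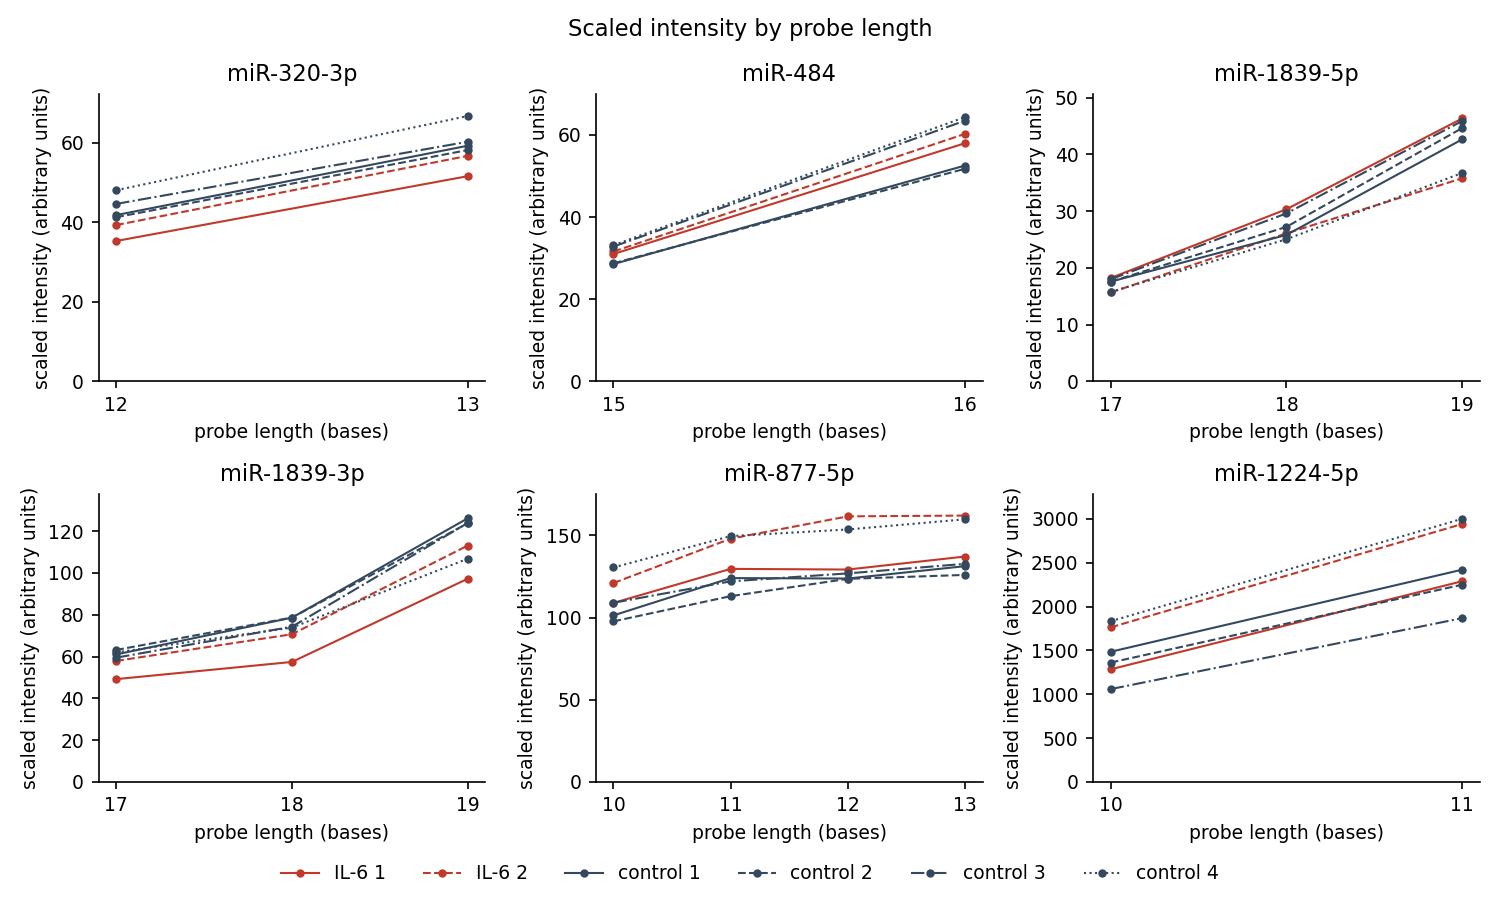
Scaled intensity (arbitrary units, linear axis from 0) of every probe of the 6 tested miRNAs against its length in bases, with 1 line per array, IL-6 in red and control in dark blue. Each length is read on its own, across arrays: after percentile scaling both lengths of miR-320-3p have the IL-6 arrays lowest, and both lengths of miR-1224-5p have the arrays of slide column 4 highest.

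Of the mirtrons, mmu-miR-877-5p had scaled intensities of 126 and 148 on the IL-6 arrays, against 120, 115, 123 and 148 on the control arrays. The arrays of slide column 4, IL-6 2 and control 4, were level with each other and above the rest. The log2 difference was 0.12 ± 0.13 (SE), a fold of 1.09 with a 95% interval of 0.874 to 1.35 (limma adjusted p = 0.639). Within columns 3 and 4 it was 0.04 and -0.00, and it was 0.00 without IL-6 2 and 0.23 without IL-6 1. All 4 of its probes gave a positive difference, between 0.08 and 0.14.

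The other mirtron, mmu-miR-1224-5p, had scaled intensities of 1787 and 2353 on the IL-6 arrays, against 1953, 1805, 1463 and 2417 on the control arrays. The column 4 arrays were again the highest, and control 3 was the lowest. The spread among controls was wide, an SD of 0.30 on the log2 scale, rank 268 from the lowest among the 299 tested. The log2 difference was 0.13 ± 0.22 (SE), a fold of 1.09 with a 95% interval of 0.757 to 1.57 (limma adjusted p = 0.781). It was 0.29 within column 3, -0.04 within column 4 and -0.07 without IL-6 2.

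The opposite arms of miR-320 and miR-1224 were not detected on any array. Their scaled intensities were near 0, from -1.02 to -0.70 with IL-6 and from -1.23 to -0.43 in controls for miR-320-5p, and from -0.53 to -0.13 with IL-6 and from -1.07 to -0.31 in controls for miR-1224-3p. MiR-877-3p was dim: by the share of spots well above background it was called detected on 1 of 2 IL-6 arrays and 2 of 4 control arrays. The scanner's own flag called miR-877-3p detected on every array. It read 12.0 and 9.06 with IL-6, against 8.02, 10.15, 9.94 and 10.9 in controls, and the groups overlapped. These 3 arms have no test.

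The arrays of slide column 4 stood apart for several of these miRNAs, in both groups alike. MiR-1224-5p differed by 0.40 between IL-6 2 and IL-6 1, and by 0.72 between control 4 and control 3. MiR-877-5p differed by 0.23 and 0.27 in the same order, and miR-1839-5p by -0.29 and -0.27. For miR-320-3p the column differences were 0.14 and 0.13, and for miR-484 0.05 and 0.02. MiR-1839-3p differed by 0.25 between the IL-6 arrays and by -0.09 between the control arrays, so its sign was not shared by the groups. The probes of miR-1224-5p and miR-877-5p average 71.4% and 74.2% G and C over 10.5 and 11.5 bases, those of miR-320-3p 59.9% over 12.5 bases, those of miR-484 64.6% over 15.5 bases and those of both miR-1839 arms 40.7% over 18 bases. Over 297 tested miRNAs, leaving out 2 at the floor on every array, the difference IL-6 2 minus IL-6 1 correlated with the mean GC share of the probes at r = 0.41 and with their mean length at r = -0.44. For control 4 minus control 3 these were 0.34 and -0.42, and for IL-6 minus control -0.04 and -0.05. These are descriptions across miRNAs that share arrays, and a part of probe composition or length in the members' values was not tested. Among the members themselves, over 6 arrays, miR-877-5p followed miR-1224-5p (r = 0.79) and miR-1839-5p ran opposite to both (r = -0.82 with miR-877-5p and -0.92 with miR-1224-5p).

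The miRNAs most like each member over the 6 arrays, by Pearson r of log2 intensity, were as follows, as descriptions. For miR-320-3p they were miR-17-3p (r = 0.96), miR-1249-3p (0.93) and miR-3091-5p (0.91), and for miR-484 miR-202-3p (0.89), miR-33-5p (0.89) and miR-452-5p (0.87). MiR-1839-5p was most like miR-199a-3p (r = 0.95), miR-148a-3p (0.94) and miR-598-3p (0.93). MiR-1839-3p was most like miR-652-5p (r = 0.96) and both arms of miR-378a, an miRNA of adipocyte metabolism (0.93 each). MiR-877-5p was most like miR-328-5p (r = 0.99), miR-5622-3p (0.98) and miR-1306-3p (0.98), and miR-1224-5p was most like miR-3072-5p (0.98), miR-1934-3p (0.96) and miR-6378 (0.96).

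Beside canonical miRNAs, the members stood neither all above nor all below. The median difference over the 6 tested was 0.01, with 3 above 0 and 3 below, and the median over all 299 was -0.02. Of a list of 30 canonical miRNAs common in fibroblast-like cells, 29 were tested and miR-191-5p was not detected. Their median was -0.10, with 22 of 29 below 0 (75.9%), against 165 of all 299 (55.2%). Within slide columns 3 and 4 the canonical median was -0.11 and -0.01. The members' median was -0.05 and -0.02 there, and that of all 299 was -0.03 and -0.01. None of the 29 passed the limma test. Of them 3, all lower, had an unadjusted p under 0.05, where 12.0% of all 299 did in that direction. Without overlap, 7 of 29 were lower (24.1%, against 21.7% of all 299) and 1 higher (miR-99a-5p, named after its value was seen). These shares are descriptions and were not tested. The 5 of them with the highest mean signal, a ranking used only to choose which to name, were miR-21a-5p, an oncogenic miRNA (-0.15), miR-199a-3p (-0.05), let-7a-5p (-0.03), let-7f-5p (-0.05) and miR-23a-3p (-0.16). All 5 of these differences were negative after percentile scaling, and miR-21a-5p separated without overlap. The sign was not kept by all 5 within slide columns 3 and 4. There let-7a-5p was at 0.11 and 0.08, let-7f-5p at 0.17 and -0.01, and miR-199a-3p at -0.02 and 0.05. MiR-21a-5p was at -0.25 and -0.14, and miR-23a-3p at -0.15 and -0.04.

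Of a second list of 15 other miRNAs made by unusual routes, 14 were on the array and 6 were tested, with a median of -0.02. The mirtron arms were miR-702-3p (-0.21), miR-3102-5p (-0.02), miR-3102-3p (0.05) and miR-3102-5p.2-5p (0.15). The snoRNA-derived miR-664-3p gave -0.11, and miR-712-5p, cut from a ribosomal RNA precursor, gave -0.01. MiR-664-3p was detected on both IL-6 arrays but on 2 of 4 control arrays. It was near the floor of 6.25, at 8.24 and 9.39 with IL-6, against 9.38, 8.60, 11.1 and 9.17 in controls. None of the 6 passed the test. After percentile scaling miR-702-3p alone of them separated, lower with IL-6, where 65 of all 299 (21.7%) did in that direction. It was at 22.2 and 23.9 with IL-6, against 25.4, 24.8, 30.3 and 26.1 in controls. MiR-451a, which Ago2 cuts in place of Dicer and which marks red blood cells, was not detected on any array.

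**Figure D3:**
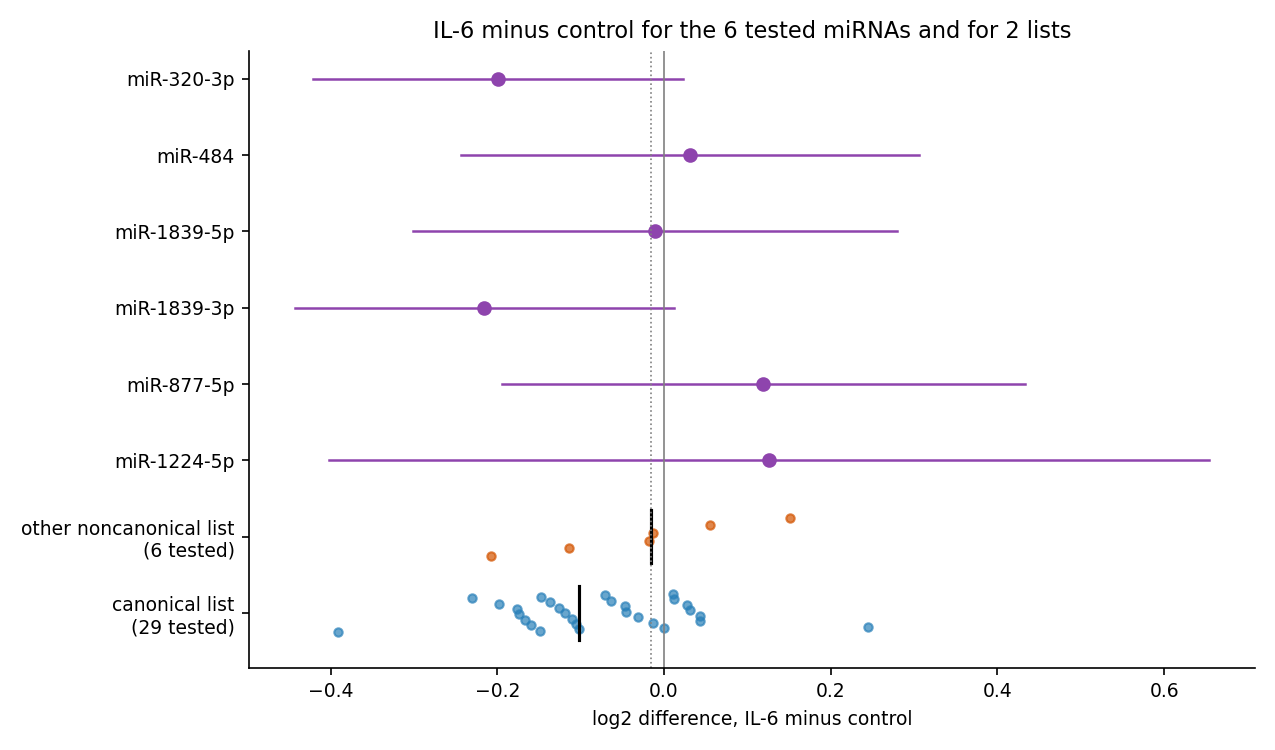
Log2 difference, IL-6 minus control, after percentile scaling. Purple points with bars are the 6 tested miRNAs with 95% intervals from limma; small points are the tested miRNAs of the 2 lists, with black bars at the list medians (-0.02 for the other noncanonical list and -0.10 for the canonical list). The solid line is 0 and the dotted line the median of all 299 tested miRNAs (-0.02). The interval of every one of the 6 includes 0.

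The scaling between arrays set the sign of part of these values. The median difference of all tested miRNAs was -0.02 after percentile scaling, 0.26 without scaling, 0.27 after spike-in scaling and -0.13 after scaling over all mouse probes. MiR-320-3p and miR-1839-3p were therefore at 0.09 and 0.08 without scaling and at 0.10 and 0.08 after spike-in scaling. Relative to that median, miR-320-3p was lower in all 23 settings compared, from -0.26 to -0.10, and miR-1839-3p in all 23, from -0.31 to -0.08. MiR-877-5p was above it in all 23, from 0.03 to 0.25. MiR-1224-5p was below it in 1 of 23, miR-484 in 3 and miR-1839-5p in 6. The settings share the same 6 arrays and are not independent of each other. Several, such as the fit without a mean trend, cannot change these values, and a new scale per array moves all miRNAs nearly alike. The spike-in signal ran only from 4.44 to 4.50 over the arrays on a log10 scale, so spike-in scaling was close to no scaling. MiR-320-3p was at -0.18 relative to the median in the main setting, without a mean trend and after scaling over all mouse probes. The count of 23 therefore overstates the number of checks.

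**Figure D4:**
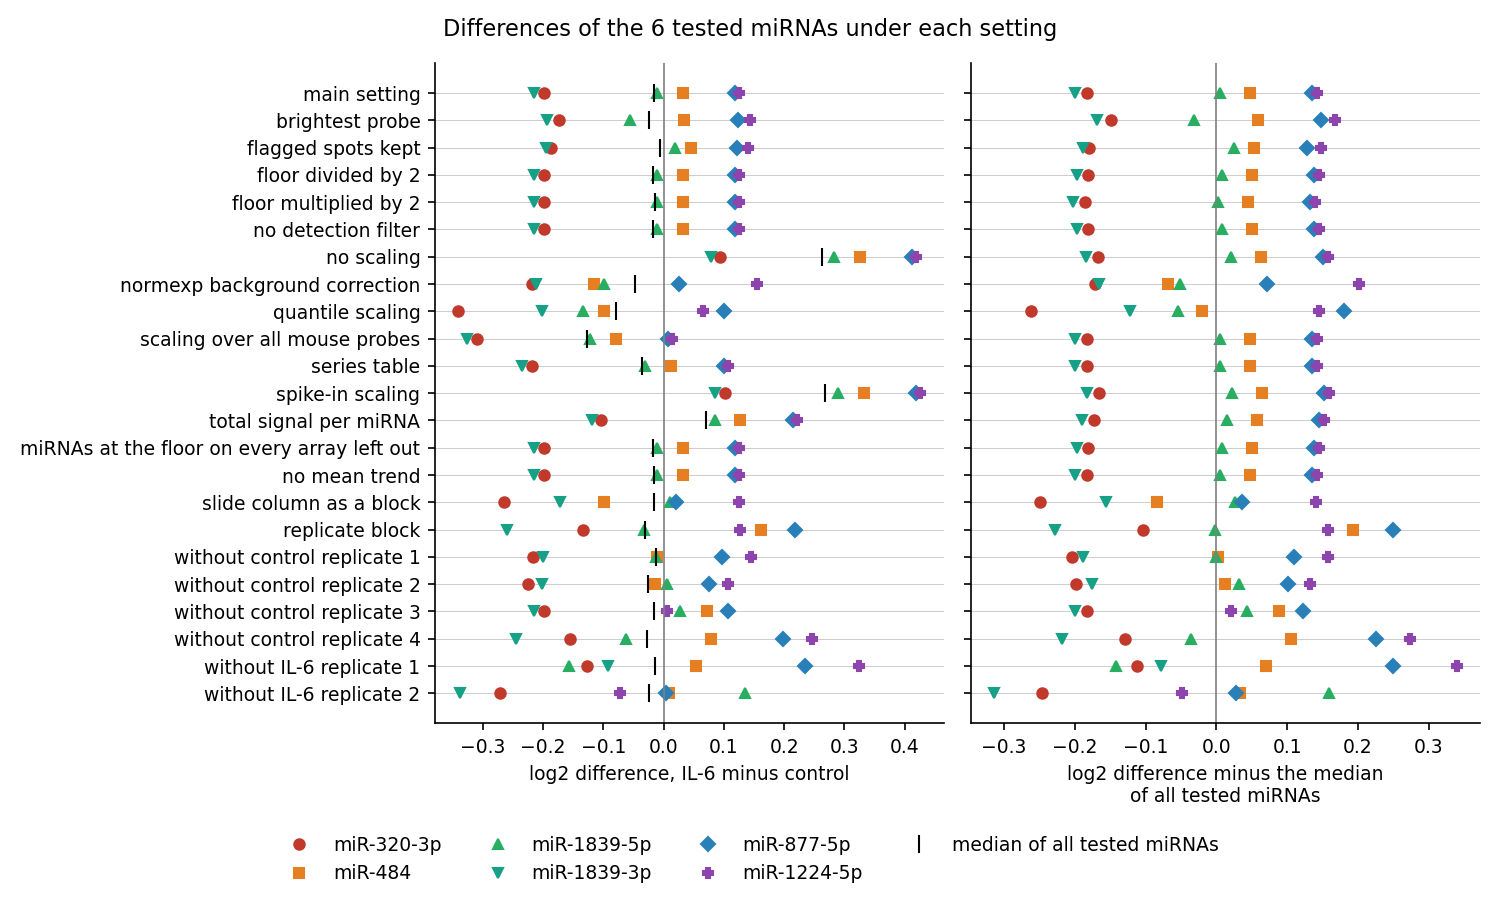
Log2 difference, IL-6 minus control, of each tested miRNA under the main setting and 22 alternatives (rows), as measured (left panel, black ticks at the median of all tested miRNAs) and after that median was subtracted (right panel). In the left panel the points of every miRNA move to the right without scaling and with spike-in scaling, where the median is 0.26 and 0.27. In the right panel miR-320-3p and miR-1839-3p stay below 0 in all 23, several of which cannot change these values.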

How the data were processed

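Small RNA was read on 1-colour Agilent mouse miRNA arrays. The input was 100 ng of total RNA per sample (integrity number 9.5 to 10.0) labelled with Cy3, per the labels' protocols. Per the file headers, the deposited intensity values had a spatially fitted background subtracted within each array, with Agilent Feature Extraction 10.10.1.1 per the submitters' processing notes. Spot flags, also deposited by the authors, give each spot's status as uneven, outlying, saturated or well above background. No mouse spot was saturated. The deposited series table held the same numbers as the scanner files' probe totals (largest difference 0).

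From these, uneven and outlying spots were dropped, the spots of each probe averaged, and a probe called detected where a share of 0.5 or more of its spots was well above background. The scale of an array came from the 502 probes that were detected on every array, by their 75th percentile. Probes of a miRNA were averaged, values under 6.25 (the highest of the arrays' lowest detected signals) set to that floor, and log2 taken. Fold changes of dim miRNAs are understated. The 299 miRNAs detected on all arrays of at least 1 group were tested with limma 3.58.1 in R 4.3.3 (mean trend, two-sided, Benjamini-Hochberg, 0.05). In 20 simulated sets of 299 miRNAs for this comparison, 71.5% of 1.5-fold and 92% of 2-fold changes were called. Whether these shares hold for the 6 measured arrays was not tested. On those arrays 1 of all 299 passed. MiR-1196-5p, with a fold of 2.54, and miR-1187, with a fold of 1.93, did not pass (limma adjusted p = 0.0795 for each). The number of arrays limits the precision.

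Samples were grouped, and replicate numbers taken, from their titles. The members and lists were chosen with earlier results of these data known. Named are all 9 members, the 3 tested miRNAs most like each by r, the 5 canonical list members with the highest mean signal and every detected one of the other noncanonical list. MiR-143-3p, miR-103-3p, miR-191-5p, miR-99a-5p, miR-451a, miR-1196-5p and miR-1187 fall outside this rule and were chosen after their values were seen.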

Additional observations from a re-analysis of the deposited data

How the results depend on the processing

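No member passed the test under any of the 22 alternatives. The count over all miRNAs, 1 in the main setting, was 14 with the brightest probe, 7 with the floor divided by 2, 2 without a detection filter, 20 without scaling, 8 with spike-in scaling, 2 with scaling over all mouse probes, 3 with the total signal per miRNA, 0 with normexp, 0 with the series table, 0 with slide column as a block, and 3 with miRNAs at the floor on every array left out, a setting chosen after seeing the data. Leaving out 1 array gave 1 to 31 calls, with 31 (23 higher and 8 lower) without control 4, 5 without IL-6 1 and 3 without IL-6 2.

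The sign turned for miR-320-3p with spike-in scaling (0.10) and without scaling (0.094), and for miR-1839-3p in the same settings (0.085 and 0.078), where the median of all miRNAs moved as far. MiR-1839-3p was -0.34 within column 3 and -0.0059 within column 4. MiR-1839-5p turned with flagged spots kept (0.018), without scaling (0.28), with spike-in scaling (0.29), with the total signal (0.085) and with the column block (0.011), and ran from -0.16 to 0.13 when 1 array was left out. MiR-484 turned with normexp (-0.11), quantile scaling (-0.10), scaling over all mouse probes (-0.080) and the column block (-0.10), and ran from -0.014 to 0.078 without 1 array. When 1 array was left out, miR-320-3p ran from -0.27 to -0.13, miR-1839-3p from -0.34 to -0.09 and miR-877-5p from 0.00 to 0.23. MiR-1224-5p ran from -0.073 to 0.32 without 1 array, and the ratio of the miR-1839 arms from -0.064 to 0.47. The difference in the ratio of miR-320-3p over miR-484 stayed between -0.28 and -0.10 over its 11 alternatives. With the brightest probe it was -0.21, and the exact two-sided permutation test gave p = 0.133, no longer the smallest that the splits allow. The causes were not tested.

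The replicate numbers 1 and 2 are shared by both groups, and the labels do not say that a number marks a shared culture or day. With 2 IL-6 arrays, the deviations of each are the negative of the other's, so the correlations between same-numbered arrays (0.06 and -0.34) and between arrays of one slide column (0.41 and 0.51) are not independent and do not settle the pairing. With the replicate block, 0 miRNAs passed, and the differences were -0.13 for miR-320-3p, 0.16 for miR-484, -0.03 for miR-1839-5p, -0.26 for miR-1839-3p, 0.22 for miR-877-5p and 0.13 for miR-1224-5p.

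With 2 IL-6 arrays, the 95% intervals of the members reach from a fold of 0.736 to 1.57. MiR-320-5p and miR-1224-3p were at the floor on every array, and miR-877-3p, above the floor on all 6, was called detected on 3.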
